A study of Mus musculus with 10 samples.

Results

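The genes described here encode enzymes of sugar metabolism: glycolysis, glucose synthesis, the polyol and fructose routes, the pentose phosphate pathway, entry into the hexosamine pathway, and glycogen. They were taken from a list of 40 gene symbols, matched to the array table by Entrez Gene ID. Of these, 39 had a row among the 16475 genes of the table, and the aldose reductase gene Akr1b3 was not analysed here. No measured value was used to match the genes, although the list was drawn up with earlier results of these data known. The diabetic group was 5 db/db mice of the BKS strain, 24 weeks old, which carry the db mutation of the leptin receptor gene on both chromosomes. The other group was 5 nondiabetic db/m littermates of the same strain and age, which by the usual meaning of the name carry 1 db copy. Kidney cortex with glomeruli removed gave 1 Affymetrix array per mouse, neither group is recorded as treated, and the labels used here do not give the sex of the mice. All values are log2 expression levels, and changes are db/db minus db/m with their standard error.

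Glycolysis splits glucose into pyruvate, and glucose synthesis runs the same path backwards through a few enzymes of its own. Proximal tubule cells, which make up most of the cortex, are known for making glucose and for burning fat rather than glucose, whereas later nephron segments rely more on glycolysis. In diabetes the side branches receive attention: the polyol route turns glucose into sorbitol and fructose, the pentose phosphate pathway supplies NADPH and ribose, the hexosamine pathway supplies sugars for protein glycosylation, and glycogen is the stored form. Many steps are served by several isozymes, which are products of different genes with the same reaction and different tissue patterns. In bulk tissue, fewer cells of a type and less RNA per cell cannot be told apart.

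One library stood apart. The array of db/db 1 correlated with the other 9 at 0.938 to 0.962 across genes, while the others correlated with each other at 0.985 or more. Results that move with this mouse are also given without it. Its 8 leukocyte markers were all higher than in any other mouse, with a mean level of 12.16, against 7.73 to 9.998 in db/db 2 to 5 and 8.46 to 8.84 in db/m. Its 6 tubular injury markers were likewise all the highest, with a mean level 4.72 above the db/m mean. In db/db 2 to 5 that list was 0.25 to 1.72 above the db/m mean, and in the db/m mice it lay between -0.45 and 0.91 of it. Krt18 and Krt19, keratins of this list, rose with all mice (adjusted p = 0.0131 and 0.0261) and without db/db 1 (adjusted p = 0.000382 and 0.0154), with groups apart. The rest of the list, Havcr1, Lcn2, Vcam1 and Sox9, did not pass in either comparison. Their changes without db/db 1 were -0.21, 2.28, 0.05 and 0.30. The labelled tissue was borne out by its markers: the 10 genes of the first proximal tubule segments had mean levels of 13.14 to 13.21 in db/db 2 to 5 and 12.93 to 13.11 in db/m, and 12.39 in db/db 1. Podocyte markers were present despite the removal of glomeruli, and 3 of 6 rose with all mice and 6 of 6 without db/db 1. They stood 0.45 to 0.58 above the db/m mean in db/db 2 to 5 and 0.14 above it in db/db 1. Markers of the last proximal segment fell in 4 of 7 cases with all mice and 5 of 7 without db/db 1, with the list at -2.65 to -1.70 from the db/m mean in the 5 db/db mice. Slc5a1 was the 1 gene of that list with a positive change, 0.43 ± 0.15 with all mice (adjusted p = 0.123 by limma). Markers of the loop, distal tubule and collecting duct were 0.31 to 0.61 above the db/m mean in db/db 2 to 5 and 1.08 below it in db/db 1; 0 of 7 passed with all mice and 5 rose without db/db 1. The part of these cell types in the changes below was not tested. Skeletal muscle markers, relevant because several of the genes are muscle isozymes, passed in 0 of 5 cases, with mean levels of 5.16 to 5.47 in db/db and 5.20 to 5.47 in db/m. Both fat cell markers measured were highest in db/m 4. Adipoq read 8.87 there and 3.83 to 4.85 in the other 9 mice, and Cidec read 6.27 and 4.69 to 5.36. Among the db/m mice, Havcr1 (7.83) and Lcn2 (9.72) were also highest in db/m 4. The part of this in the changes below was not tested.

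By limma, 7 of the 39 sugar metabolism genes were higher in db/db at an adjusted p under 0.05: Hk1, Aldoc, Pkm and Pklr of glycolysis, Pck2 and Fbp2 of glucose synthesis, and Pygb of glycogen breakdown. None passed in the lower direction. The rises were 1.499-fold to 1.78-fold. This is 17.9% of the measured members, where 2.96% of all genes were higher and 3.54% lower, 6.51% in all. The list was drawn up with earlier results of these data known, so this comparison is descriptive and not a test of an excess. Among 51 measured genes of the same branches outside the list, 0 were higher and 4 lower. At an unadjusted p under 0.05 there were 11 members higher and 1 lower, where 1553 of the 16475 genes were higher and 1994 lower. The median change was 0.19 over the 39 members and -0.03 over all genes. A positive change was seen in 28 members and in 7105 of the 16475 genes. In 6 members all 5 db/db mice lay above all 5 db/m mice, which held for 4.35% of all genes, and in 0 members all lay below, which held for 5.85%. Without db/db 1 the groups stood apart in the lower direction for 7.61% of all genes and, among the members, for Taldo1 alone. In the higher direction they did so for 7.76% of all genes. The members were Hk1, Pfkm, Aldoc, Pkm, Pklr, Pck2, Fbp2, Slc37a4, Tkt and Pygb. Without db/db 1 the same 7 genes and also Tkt, Gfpt2 and Gys1 passed, 10 in all against 6.84% of all genes higher in that comparison, and 0 fell, where 5.93% of all genes did. The members' median was then 0.15. The count was 4 without db/db 3, 2 without db/m 3 and 4 without db/m 5, and it was 5 with each array centred on its median, a scaling under which 363 genes were higher and 751 lower in the whole table, against 488 and 584 as deposited.

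**Figure D1:**
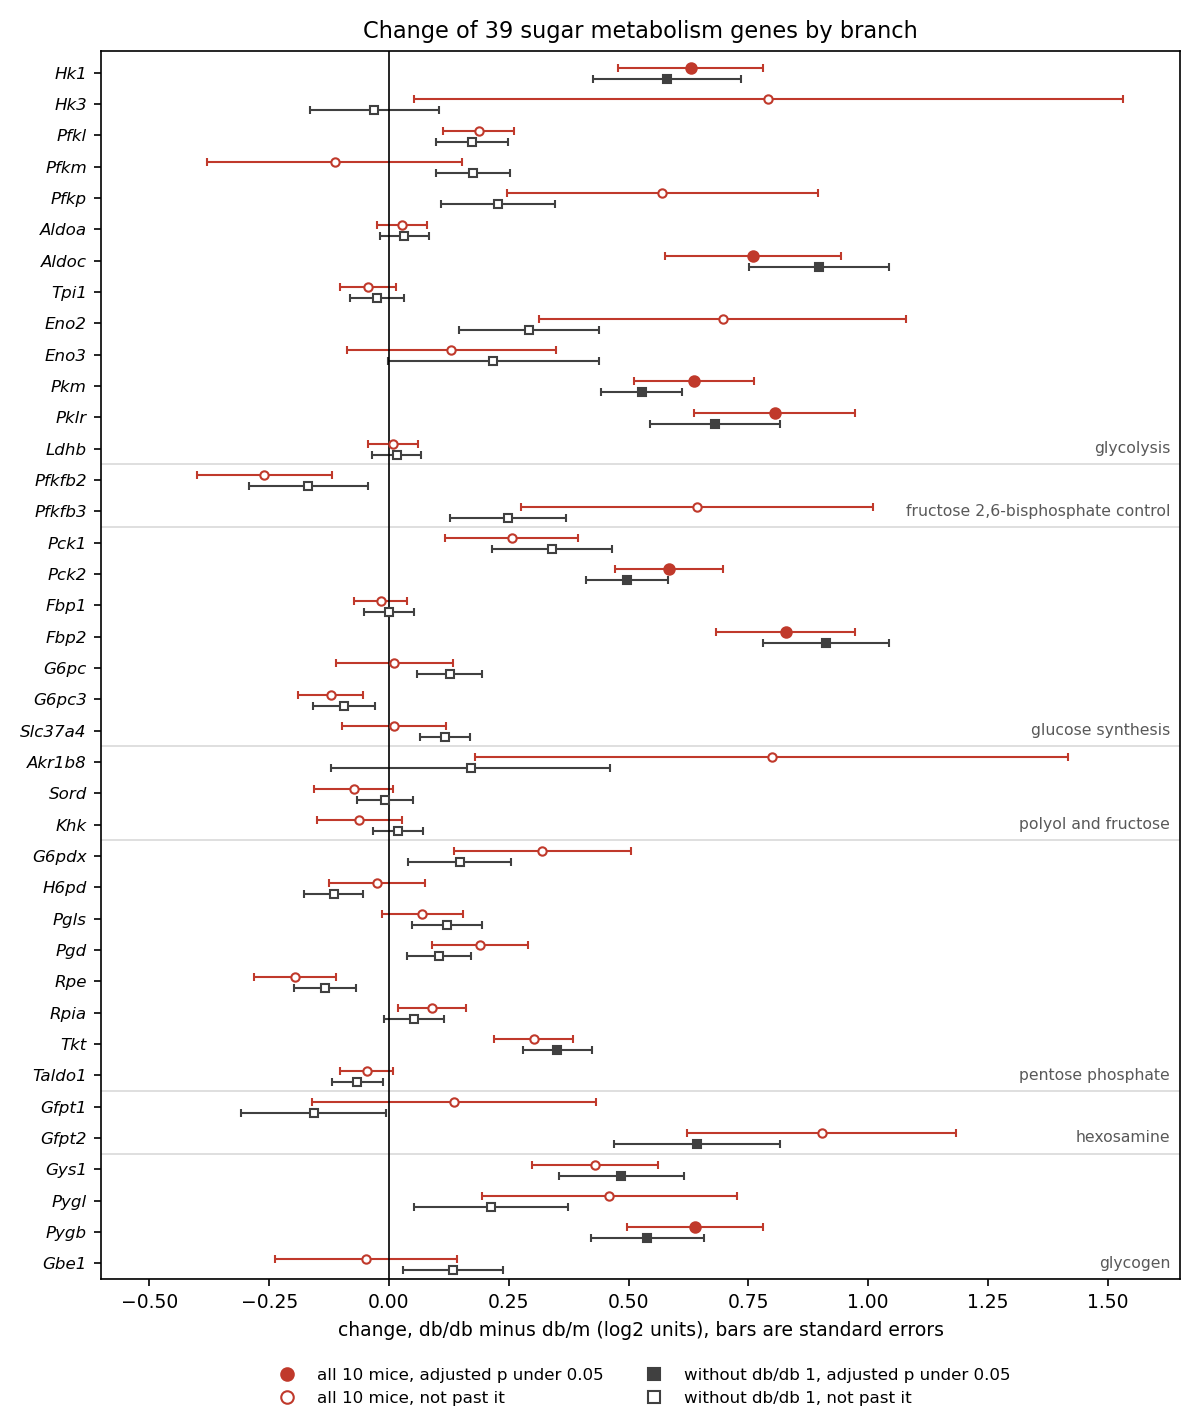
Change of each of the 39 measured genes, db/db minus db/m in log2 units with standard errors, grouped by branch; red circles use all 10 mice, dark squares leave out db/db 1, and filled symbols passed the threshold. The filled symbols all lie to the right of 0, and the wide bars of Hk3, Akr1b8, Eno2, Pfkfb3, Pfkp and Gfpt1 shrink when db/db 1 is left out.

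Glycolysis held 4 of the rises among its 13 members, at its first step, in the middle and at its last step. With all mice the median change of the branch was 0.57, and without db/db 1 it was 0.22. Hk1 encodes the hexokinase that most tissues use to trap glucose as its phosphate. Hk1 read 8.45, 8.01, 8.55, 8.21 and 8.06 in db/db 1 to 5, against 7.74, 7.28, 7.49, 7.998 and 7.63 in db/m 1 to 5. The groups did not overlap, but only just, with db/db 2 and db/m 4 nearly level. The change was 0.63 ± 0.15, a 1.55-fold rise (adjusted p = 0.0378 by limma), and 0.58 ± 0.16 without db/db 1 (adjusted p = 0.0379).

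Aldoc encodes the aldolase best known from brain. Aldoc read 8.89, 9.55, 9.80, 9.47 and 9.51 in db/db 1 to 5, against 8.84, 9.02, 8.30, 8.79 and 8.48 in db/m 1 to 5. Mouse db/db 1 lay within the db/m range and the other 4 db/db mice above it. The rise was 0.76 ± 0.18 with all mice (1.69-fold, adjusted p = 0.0385) and 0.90 ± 0.15 without db/db 1 (adjusted p = 0.00421).

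Both pyruvate kinase genes, which serve the last step of glycolysis, rose. Pkm, the form of muscle and most other tissues, read 13.25, 12.62, 12.75, 12.66 and 12.79 in db/db 1 to 5, against 12.17, 12.38, 12.15, 12.20 and 11.98 in db/m 1 to 5. The groups were apart, with db/db 1 the highest of all. Pkm changed by 0.64 ± 0.13 (1.55-fold, adjusted p = 0.0168), or 0.53 ± 0.08 without db/db 1 (adjusted p = 0.00381). Pklr, the form of liver and red blood cells, read 9.72, 9.15, 9.43, 9.13 and 8.68 in db/db 1 to 5, against 8.46, 8.43, 8.24, 8.41 and 8.55 in db/m 1 to 5. Again the groups did not overlap, and db/db 5 was nearest to the db/m mice. Pklr changed by 0.80 ± 0.17 (1.75-fold, adjusted p = 0.0212), or 0.68 ± 0.13 without db/db 1 (adjusted p = 0.0104).

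Among the glycolysis calls, leaving out db/m 3 gave the highest adjusted p for each gene: 0.101 for Hk1, 0.0965 for Aldoc, 0.0633 for Pklr and 0.0501 for Pkm. Of the 10 fits that each left out 1 mouse, Hk1 passed in 4, Aldoc in 2, Pklr in 7 and Pkm in 9. Aldoc passed when db/db 1 or db/m 2 was dropped, and Hk1 when db/db 1, db/db 2, db/db 5 or db/m 4 was dropped. Pklr also missed the threshold on dropping db/db 3 (adjusted p = 0.0523) or db/m 4 (adjusted p = 0.0536).

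The other 9 glycolysis genes did not pass in either comparison. The bright members Aldoa, Tpi1 and Ldhb were nearly level between the groups. Aldoa, the muscle and general aldolase, was at 13.70 ± 0.02 in db/db and 13.67 ± 0.03 in db/m, and Tpi1, triose phosphate isomerase, at 13.47 ± 0.06 in db/db and 13.52 ± 0.05 in db/m. Ldhb, the heart-type lactate dehydrogenase, was at 14.04 ± 0.04 in db/db and 14.03 ± 0.01 in db/m (SD, n = 5 each). Their changes were 0.03 ± 0.05, -0.04 ± 0.06 and 0.01 ± 0.05.

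The 3 phosphofructokinase genes, which commit sugar to glycolysis, parted in db/db 1. Pfkm, the muscle form, read 9.996 in db/db 1 and 11.36, 11.39, 11.49 and 11.51 in db/db 2 to 5, against 11.30, 11.33, 11.29, 11.05 and 11.35 in db/m 1 to 5. Pfkp, the platelet form, read 10.08 in db/db 1 and 8.43, 8.47, 8.20 and 8.34 in db/db 2 to 5, against 8.05, 8.09, 8.07, 8.53 and 7.93 in db/m 1 to 5. Thus in db/db 1 the muscle form was below and the platelet form above every other mouse. Pfkl, the liver form, stayed within 10.85 and 11.28 in all mice, with a change of 0.19 ± 0.07 (adjusted p = 0.171). The changes of Pfkm and Pfkp were -0.11 ± 0.27 and 0.57 ± 0.32 with all mice, and 0.18 ± 0.08 and 0.23 ± 0.12 without db/db 1, and neither passed (adjusted p = 0.844 and 0.346, and 0.178 and 0.265).

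Hk3, a hexokinase of white blood cells, was at 10.77 in db/db 1 and 6.34 to 6.95 in db/db 2 to 5, against 6.56 to 6.98 in db/m. The high value lay in the mouse whose leukocyte markers were highest; without it the change was -0.03 ± 0.13 (adjusted p = 0.925), against 0.79 ± 0.74 with it. Eno2, the neuronal enolase, was at 10.14 in db/db 1 and 7.69 to 8.36 in db/db 2 to 5, against 7.56 to 8.01 in db/m, with changes of 0.70 ± 0.38 and, without db/db 1, 0.29 ± 0.15 (adjusted p = 0.329 and 0.241). Eno3, the muscle enolase, had overlapping groups and a change of 0.13 ± 0.22 (adjusted p = 0.778), or 0.22 ± 0.22 without db/db 1 (adjusted p = 0.602).

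Pfkfb2 and Pfkfb3 encode bifunctional enzymes that make and remove the sugar bisphosphate that activates phosphofructokinase. Pfkfb3, the inducible form, was at 10.10 in db/db 1 and 7.92 to 8.31 in db/db 2 to 5, against 7.72 to 8.24 in db/m (change 0.64 ± 0.37, adjusted p = 0.348; without db/db 1, 0.25 ± 0.12, adjusted p = 0.228). Pfkfb2, known from heart and kidney, was dim at 5.80 to 6.56 in db/db, against 6.24 to 6.57 in db/m, with a change of -0.26 ± 0.14 (adjusted p = 0.324; without db/db 1, -0.17 ± 0.12, adjusted p = 0.443). Neither gene passed with or without db/db 1.

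**Figure D2:**
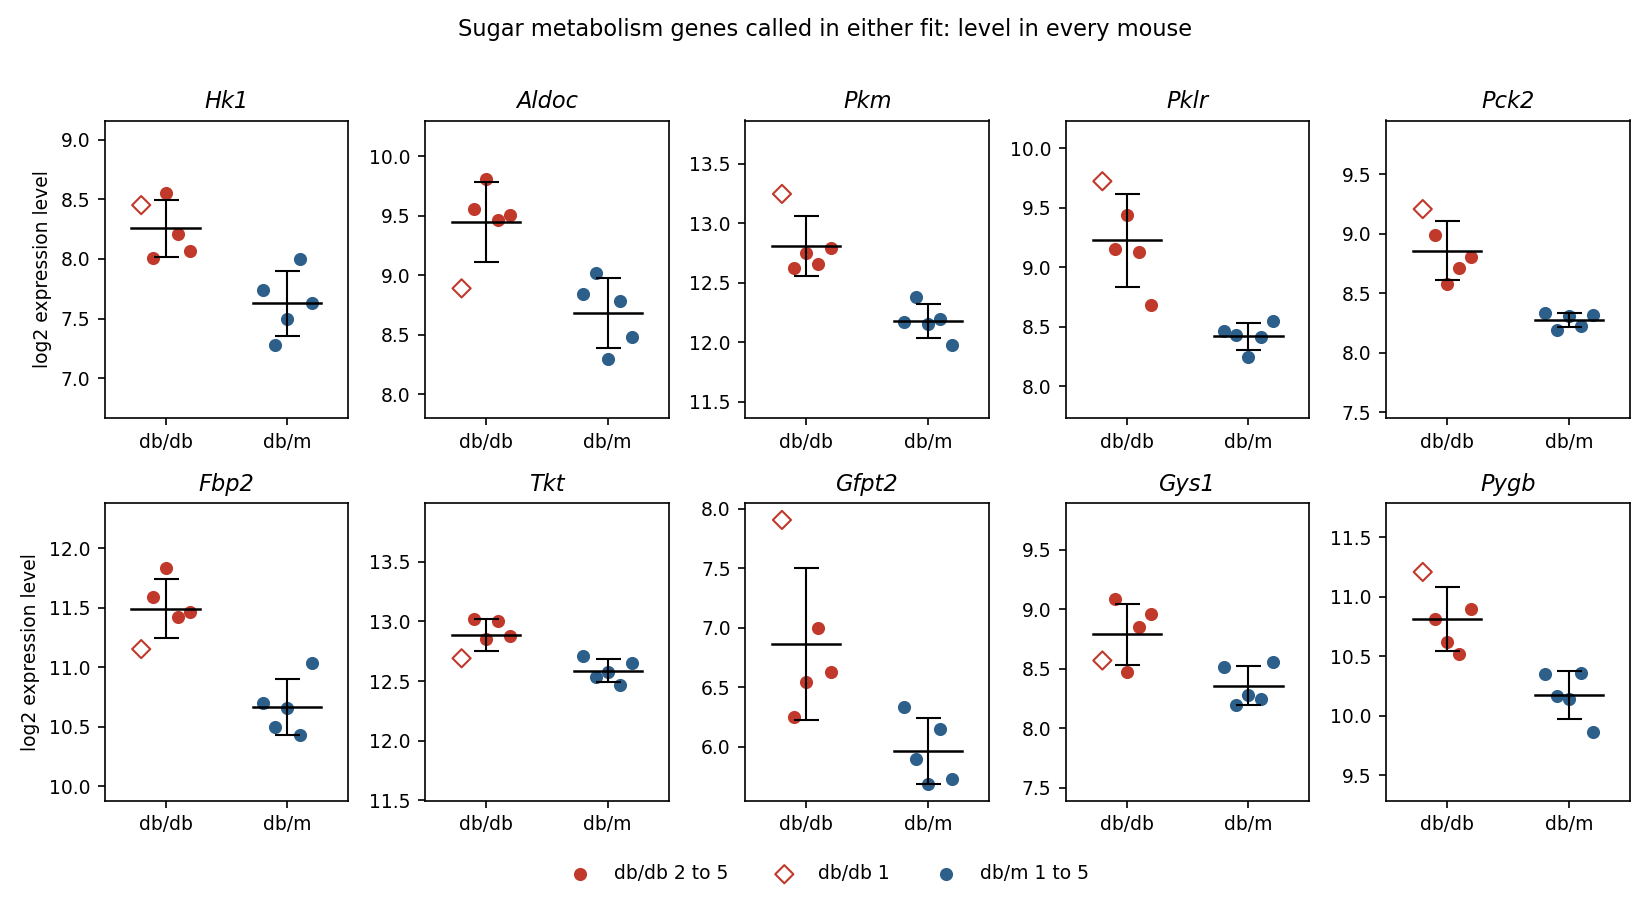
Log2 expression level in every mouse for the 10 genes past the threshold with all mice or without db/db 1; lines and bars are group means and SD over 5 mice, each panel spans 2.5 log2 units, and the open diamond is db/db 1. In Hk1, Pkm, Pklr, Pck2, Fbp2 and Pygb all db/db mice lie above all db/m mice, while db/db 1 lies near the db/m mice in Aldoc, Tkt and Gys1.

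In glucose synthesis the 2 genes that rose, Fbp2 and Pck2, each had a brighter isozyme of the same step that did not pass. Fbp2, the muscle form of the bisphosphatase that opposes phosphofructokinase, read 11.15, 11.59, 11.83, 11.42 and 11.47 in db/db 1 to 5, against 10.70, 10.50, 10.66, 10.43 and 11.04 in db/m 1 to 5. The lowest db/db mouse, db/db 1, was above the highest db/m mouse, db/m 5. The rise was 0.83 ± 0.14 (1.78-fold, adjusted p = 0.0102) and 0.91 ± 0.13 without db/db 1 (adjusted p = 0.00247). Fbp1, the liver and kidney form, was at 13.89 ± 0.04 in db/db and 13.91 ± 0.04 in db/m (SD, n = 5 each), with a change of -0.02 ± 0.06 (adjusted p = 0.893).

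Pck2 encodes the mitochondrial form of the carboxykinase that turns oxaloacetate into phosphoenolpyruvate. It read 9.21, 8.99, 8.57, 8.71 and 8.80 in db/db 1 to 5, against 8.33, 8.19, 8.30, 8.22 and 8.32 in db/m 1 to 5. The db/m mice lay within a narrow band and every db/db mouse above it. Pck2 changed by 0.58 ± 0.11 (1.499-fold, adjusted p = 0.0152), or 0.50 ± 0.09 without db/db 1 (adjusted p = 0.0054). Fbp2 and Pck2 passed in all 10 fits that left out 1 mouse, with adjusted p up to 0.033 and 0.0435. Pck1, the cytosolic form and a classical gene of kidney glucose synthesis, read 12.52, 12.80, 12.82, 13.30 and 12.82 in db/db 1 to 5, against 12.54, 12.37, 12.63, 12.63 and 12.82 in db/m 1 to 5. Its groups overlapped, and its change was 0.26 ± 0.14 (adjusted p = 0.323), or 0.34 ± 0.13 without db/db 1 (adjusted p = 0.113).

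The last step of glucose release is shared by G6pc, the glucose 6-phosphatase of liver and kidney, and Slc37a4, which carries its substrate into the endoplasmic reticulum. G6pc was at 12.75 in db/db 1 and 13.22 to 13.38 in db/db 2 to 5, against 13.09 to 13.31 in db/m, and Slc37a4 was at 13.08 in db/db 1 and 13.57 to 13.63 in db/db 2 to 5, against 13.44 to 13.52 in db/m. Both were lowest in db/db 1. Their changes were 0.01 ± 0.12 and 0.01 ± 0.11 with all mice and 0.13 ± 0.07 and 0.12 ± 0.05 without db/db 1, and neither passed (adjusted p = 0.272 and 0.19 without db/db 1). G6pc3, the phosphatase found in most tissues, was at 10.67 ± 0.09 in db/db and 10.79 ± 0.08 in db/m (change -0.12 ± 0.07, adjusted p = 0.341; SD, n = 5 each).

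The stretches of DNA just before the starts of these isozyme genes are shown because the 2 genes that rose and the 2 brighter ones that did not pass serve the same steps. Passing in 1 gene and not in the other is not itself a difference between them. The changes of Pck2 and Pck1 differed by 0.33 with all mice (p = 0.19 by the exact permutation test described below). A link between motifs and changes was not tested. Each is the 120 bases before the annotated start from RefSeq (build GRCm38.p6), in the direction of the gene; all 39 members had an entry. Capitals mark matches, on either strand, to CACGTG (the E-box bound by carbohydrate response factors), TGACNNNGC (the antioxidant response core), TGGAAA (the tonicity element core) and TGATGNAA (the amino acid response core).
Fbp2, chr13:62858401-62858520, minus strand: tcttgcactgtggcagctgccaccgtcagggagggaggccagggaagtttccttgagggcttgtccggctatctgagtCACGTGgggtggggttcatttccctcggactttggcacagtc
Fbp1, chr13:62888283-62888402, minus strand: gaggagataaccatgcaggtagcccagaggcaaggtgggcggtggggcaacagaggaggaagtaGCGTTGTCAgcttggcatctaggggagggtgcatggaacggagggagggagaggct
Pck2, chr14:55540146-55540265, plus strand: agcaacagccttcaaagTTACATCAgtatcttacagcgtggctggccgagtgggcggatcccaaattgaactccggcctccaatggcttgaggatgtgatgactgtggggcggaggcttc
Pck1, chr2:173152953-173153072, plus strand: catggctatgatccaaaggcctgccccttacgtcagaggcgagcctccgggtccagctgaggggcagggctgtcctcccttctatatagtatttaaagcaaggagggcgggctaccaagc

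In Fbp2 the match is an E-box that begins 42 bases before the start, and in Pck2 it is the amino acid response core, which begins 103 bases before the start on the opposite strand. Fbp1 holds the antioxidant core and Pck1 none of these letters in the stretch shown. Over the 250 bases before each annotated start, the E-box was present in 15.4% of the 39 members and 8.98% of the genes on the array with a promoter entry. The amino acid response core was in 5.13% of members and 2.75% of array genes, the antioxidant core in 12.8% and 13.4%, and the tonicity core in 28.2% and 18.6%. Counted over annotated starts, of which the members have 54, the shares were 11.1% and 7.56% for the E-box, 3.70% and 2.30% for the amino acid response core, 9.26% and 11.4% for the antioxidant core, and 20.4% and 15.9% for the tonicity core. Among the 7 genes that rose, each of the first 3 motifs was present in 1 and the tonicity core in 4. No motif contains another, and such a match is a run of letters, not a measured binding site.

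Without db/db 1 some pairs of isozymes of the same step passed, whereas with all mice no pair passed. That contrast rests on the smallest possible p and on ties, as given below. For each of 14 isozyme pairs the log2 ratio of the 2 genes within an array was compared between the groups with a two-sided exact permutation test, in which the smallest possible p is 0.00794 with 5 against 5 mice and 0.0159 with 4 against 5. The change of Fbp2 exceeded that of Fbp1 by 0.84 (p = 0.00794 by the exact permutation test, adjusted p = 0.0556 over the 14 pairs), with the ratio of every db/db mouse above every db/m mouse. Gfpt2 exceeded Gfpt1 by 0.77, with the same p values and groups apart. Pfkfb3 exceeded Pfkfb2 by 0.90 and Aldoc exceeded Aldoa by 0.73, both with overlapping ratios (p = 0.0159 by the exact permutation test, adjusted p = 0.0556). For Pfkfb3 over Pfkfb2 the difference was 0.42 without db/db 1 (adjusted p = 0.0741 by the exact permutation test). With all mice 0 of the 14 pairs had an adjusted p under 0.05. Without db/db 1, 5 pairs had groups apart and an adjusted p of 0.0444 by the exact permutation test: Fbp2 over Fbp1 (0.91), Aldoc over Aldoa (0.87), Gfpt2 over Gfpt1 (0.80), Pygb over Pygl (0.33) and G6pc over G6pc3 (0.22). All 5 sat at the smallest possible p, and the adjusted value depends on that tie. With all mice Pygb over Pygl (0.18) and G6pc over G6pc3 (0.13) had overlapping ratios (p = 0.413 and 0.222 by the exact permutation test). Of the genes in these 5 pairs, Fbp1, Aldoa and G6pc had mean levels of at least 13, near the top of the scale, where compression was not tested. For Pck2 over Pck1 the difference was 0.33 with all mice and 0.16 without db/db 1, with overlapping ratios (p = 0.19 and 0.381 by the exact permutation test), and for Pklr over Pkm it was 0.17 and 0.15 (p = 0.333 and 0.429 by the exact permutation test).

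**Figure D3:**
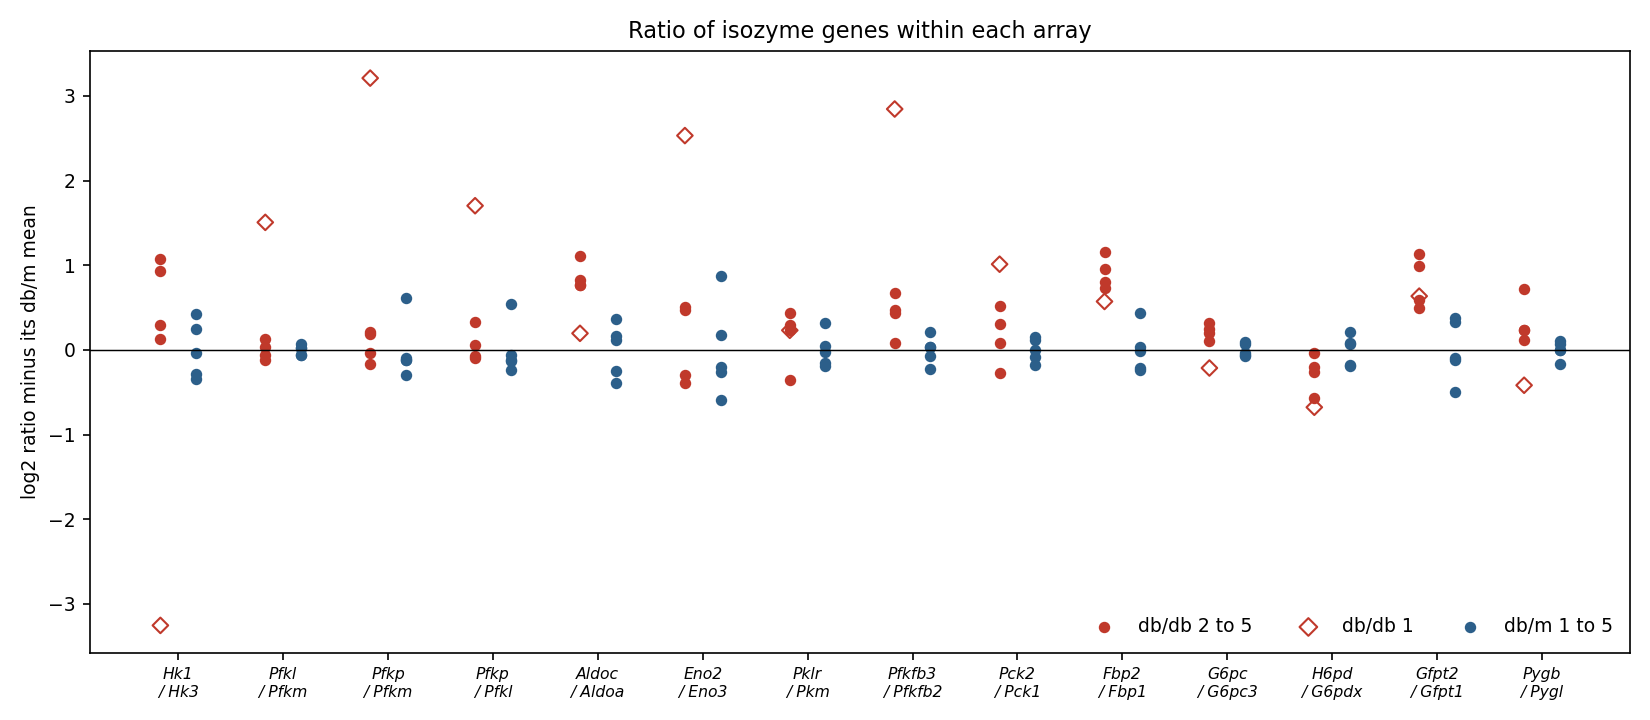
Log2 ratio of the first to the second isozyme gene within each array, minus the mean of that ratio over the 5 db/m mice, for 14 pairs; each point is 1 mouse and the open diamond is db/db 1. The db/db mice lie above the db/m mice in Fbp2 over Fbp1 and Gfpt2 over Gfpt1, and db/db 1 alone lies far out in the ratios of Hk3, Pfkm, Pfkp, Eno2 and Pfkfb3.

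The 9 members with a mean level of at least 13 had 0 calls, and their changes with all mice ran between -0.07 (Sord) and 0.03 (Aldoa). In the comparison lacking db/db 1 they ran between -0.11 (H6pd) and 0.13 (G6pc), again with 0 calls. With all mice, 3 of the 15 members between 10 and 13 and 4 of the 15 below 10 rose. Of all genes, 0.871% were higher among those at a level of at least 13, 2.98% between 10 and 13, and 3.04% below 10. The scale ended at 14.53, and whether differences are compressed near its top was not tested.

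The polyol and fructose genes did not pass, 0 of 3, with or without db/db 1. Sord, sorbitol dehydrogenase, was at 12.74 in db/db 1 and 12.99 to 13.12 in db/db 2 to 5, against 12.998 to 13.14 in db/m (change -0.07 ± 0.08, adjusted p = 0.655; without db/db 1, -0.01 ± 0.06). Khk, the fructokinase of liver and kidney, was at 13.28 in db/db 1 and 13.65 to 13.73 in db/db 2 to 5, against 13.64 to 13.70 in db/m (change -0.06 ± 0.09, adjusted p = 0.735; without db/db 1, 0.02 ± 0.05). Akr1b8, an aldo-keto reductase related to aldose reductase, read 10.63, 8.16, 7.83, 7.17 and 6.80 in db/db 1 to 5, against 6.77, 7.498, 7.498, 7.77 and 7.06 in db/m 1 to 5. Its highest values lay in db/db 1 and db/db 2, the mice with the highest and second highest leukocyte and injury marker levels. Mouse db/db 3 was also above every db/m mouse, by little. The changes of Akr1b8 were 0.80 ± 0.62 and, without db/db 1, 0.17 ± 0.29 (adjusted p = 0.503 and 0.78).

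In the pentose phosphate pathway 0 of 8 genes passed with all mice, and Tkt rose without db/db 1. Tkt encodes transketolase, which moves 2-carbon units in the arm that makes no NADPH. It read 12.69, 13.02, 12.85, 13.001 and 12.88 in db/db 1 to 5, against 12.71, 12.53, 12.57, 12.47 and 12.65 in db/m 1 to 5. Mouse db/db 1 lay within the db/m range and the other 4 db/db mice above it. The change was 0.30 ± 0.08 with all mice (adjusted p = 0.0587) and 0.35 ± 0.07 without db/db 1 (adjusted p = 0.0121). Taldo1, transaldolase of the same arm, was at 12.83 ± 0.05 in db/db and 12.87 ± 0.04 in db/m, with a change of -0.05 ± 0.06 (adjusted p = 0.674).

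The NADPH-making dehydrogenases were highest in db/db 1. G6pdx, the first enzyme of the pathway, was at 12.16 in db/db 1 and 11.11 to 11.57 in db/db 2 to 5, against 10.99 to 11.36 in db/m. Pgd, the second dehydrogenase, was at 12.73 in db/db 1 and 12.18 to 12.40 in db/db 2 to 5, against 12.16 to 12.31 in db/m. H6pd, which serves the endoplasmic reticulum, was at 13.40 in db/db 1 and 12.90 to 12.99 in db/db 2 to 5, against 12.92 to 13.11 in db/m. Their changes were 0.32 ± 0.18, 0.19 ± 0.10 and -0.03 ± 0.10 (adjusted p = 0.35, 0.304 and 0.911), and in the comparison lacking db/db 1 these became 0.15, 0.11 and -0.11, again with no call. Pgls, the lactonase, Rpe, the pentose phosphate epimerase, and Rpia, the pentose phosphate isomerase, had changes of 0.07 ± 0.08, -0.20 ± 0.08 and 0.09 ± 0.07 (adjusted p = 0.681, 0.215 and 0.511). On leaving out db/db 1 their changes were 0.12, -0.13 and 0.05, with no call. Rpe was the 1 member lower at an unadjusted p under 0.05 with all mice.

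Gfpt1 and Gfpt2 encode the enzyme that draws fructose 6-phosphate into the hexosamine pathway. Gfpt2 read 7.90, 6.25, 6.54, 6.999 and 6.63 in db/db 1 to 5, against 6.33, 5.90, 5.69, 6.15 and 5.73 in db/m 1 to 5. Only db/db 2 was within the db/m range, and the gene was dim. Gfpt2 changed by 0.90 ± 0.28 with all mice (adjusted p = 0.089) and rose by 0.64 ± 0.17 without db/db 1 (adjusted p = 0.0386). Gfpt1 was at 7.78 in db/db 1 and 6.15 to 6.57 in db/db 2 to 5, against 6.08 to 6.76 in db/m, and its change was 0.14 ± 0.30 with all mice and -0.16 ± 0.15 without db/db 1, with no call (adjusted p = 0.83 and 0.579).

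Among the glycogen genes, the phosphorylase Pygb rose with all mice and the synthase Gys1 without db/db 1. Pygb, the brain form of the enzyme that releases glucose phosphate from glycogen, read 11.21, 10.81, 10.62, 10.52 and 10.90 in db/db 1 to 5, against 10.35, 10.16, 10.14, 10.36 and 9.86 in db/m 1 to 5. The groups were apart. The rise was 0.64 ± 0.14 (1.56-fold, adjusted p = 0.0277), or 0.54 ± 0.12 without db/db 1 (adjusted p = 0.0165). Pygb passed in 5 of the 10 fits that left out 1 mouse; its adjusted p was 0.0579 to 0.0756 in the others, which dropped db/db 2, db/db 5, db/m 2, db/m 3 or db/m 5.

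Gys1, the glycogen synthase of most tissues, read 8.57, 9.08, 8.47, 8.85 and 8.96 in db/db 1 to 5, against 8.51, 8.20, 8.28, 8.24 and 8.55 in db/m 1 to 5. Mouse db/db 3 lay within the db/m range and db/db 1 just above it. The change was 0.43 ± 0.13 with all mice (adjusted p = 0.0833) and 0.48 ± 0.13 without db/db 1 (adjusted p = 0.0385). Pygl, the liver phosphorylase, was at 11.25 in db/db 1 and 9.72 to 10.40 in db/db 2 to 5, against 9.42 to 9.98 in db/m (change 0.46 ± 0.27, adjusted p = 0.352; without db/db 1, 0.21 ± 0.16, adjusted p = 0.456). Gbe1, the branching enzyme, was at 10.07 in db/db 1 and 10.85 to 11.19 in db/db 2 to 5, against 10.58 to 11.05 in db/m (change -0.05 ± 0.19, adjusted p = 0.91; without db/db 1, 0.13 ± 0.10, adjusted p = 0.472).

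Mouse db/db 1 lay outside the range of the other 9 mice for 28 of the 39 members. It was above them in 16, where 19.9% of all genes were, and below them in 12, where 41.6% of all genes were. The highest were Hk3, 4.08 above the db/m mean, Akr1b8 (3.31), Eno2 (2.31), Pfkfb3 (2.22), Pfkp and Gfpt2 (both 1.94). The lowest were Pfkm, at -1.27 from the db/m mean, Gbe1 (-0.78), Pfkfb2 (-0.63), and G6pc and Rpe (both -0.45). In Hk3, Pfkp, Eno2 and Pfkfb3 the db/db 2 to 5 mice overlapped the db/m mice, and the changes without db/db 1 were -0.03, 0.23, 0.29 and 0.25. For Pfkp the overlap lay in db/m 4 alone, at 8.53, with the other db/m mice at 7.93 to 8.09. In Aldoc, Fbp2 and Tkt, db/db 1 was instead the lowest of the 5 db/db mice.

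**Figure D4:**
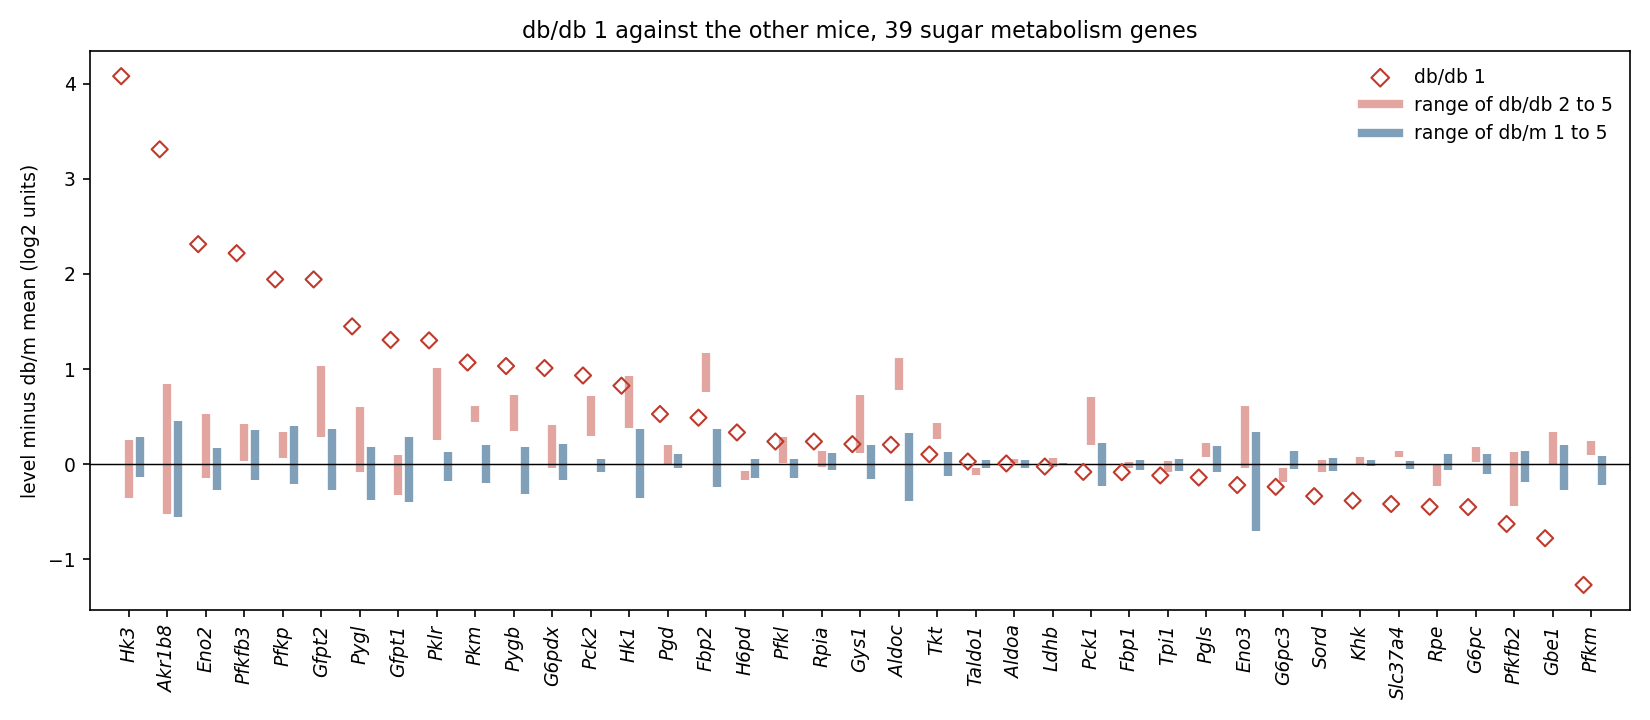
Level minus the db/m mean, in log2 units, for the 39 measured genes ordered by db/db 1 (open diamonds), with the range of db/db 2 to 5 (red bars) and of db/m 1 to 5 (blue bars). Hk3 and Akr1b8 of db/db 1 stand more than 3 units above the db/m mean and Pfkm more than 1 unit below it.

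The same branches hold further genes outside the list of 40. Of 57 further genes listed, 51 were measured. Those without a row were Hk2, Gapdh, Pgk1, Pgam1, Eno1 and Ldha, all of glycolysis, so that branch was covered only in part. By limma 0 were higher and 4 lower with all mice, where 2.96% of all genes were higher and 3.54% lower. At an unadjusted p under 0.05 there were 3 higher and 6 lower, where 1553 of the 16475 genes were higher and 1994 lower. Stbd1, which tethers glycogen to membranes, fell 2.94-fold, to 7.76 ± 0.53 in db/db, against 9.32 ± 0.19 in db/m (SD, n = 5 each; change -1.56 ± 0.23, adjusted p = 0.00487; without db/db 1, -1.71 ± 0.20). Ldhd, the mitochondrial dehydrogenase of D-lactate, fell by 0.75 ± 0.12 (adjusted p = 0.00693), and Adpgk, an ADP-dependent glucokinase, fell by 0.42 ± 0.06 (adjusted p = 0.00534). Stbd1, Ldhd and Adpgk each had groups apart and passed in all 10 fits that left out 1 mouse. Phkb, a regulatory subunit of phosphorylase kinase, fell by 0.53 ± 0.14 (adjusted p = 0.0469) and passed in 2 of those fits; its highest adjusted p was 0.103, on dropping db/m 4. The changes of Ldhd, Adpgk and Phkb were -0.83, -0.42 and -0.40 without db/db 1. Of the 51 genes, 6 had groups apart in the lower direction, where 5.85% of all genes did, and 0 in the higher, where 4.35% did. Among the 6 was Gys2, the other glycogen synthase gene, named after its values were seen. Gys2 did not pass by limma (-0.75 ± 0.43, adjusted p = 0.352, and without db/db 1 -0.28 ± 0.11, adjusted p = 0.148). In the branches without a call with all mice the gene nearest the threshold was Pfkfb1 (0.61 ± 0.18, adjusted p = 0.0691), Got1 (0.25 ± 0.12, adjusted p = 0.243), Glyctk (-0.62 ± 0.25, adjusted p = 0.175), Gnpnat1 (-0.20 ± 0.11, adjusted p = 0.317) and Prps1 (0.10 ± 0.06, adjusted p = 0.368). On leaving out db/db 1 the counts were 1 higher and 6 lower, where 6.84% of all genes were higher and 5.93% lower. The 3 genes added, named after their values were seen, were Pgam2, a muscle phosphoglycerate mutase (0.64 ± 0.15, adjusted p = 0.0252), and, both lower and of the polyol and fructose branch, Glyctk (-0.35 ± 0.07, adjusted p = 0.00802) and Akr1b10 (-0.35 ± 0.09, adjusted p = 0.0403).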

How the data were processed

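The deposited values are log2 expression levels. The submitters' processing notes name RMA; its version and how probes were grouped by gene: not given in the sources used here. In all, the deposited table held 16539 rows; 64 control rows were left out and the 16475 gene rows, 1 per Entrez Gene ID, were used as deposited. Symbols came from the supplied platform annotation or, by Entrez ID, the RefSeq gene table. The comparison of db/db with db/m used limma 3.58.1 under R 4.3.3 (lmFit, eBayes without trend, two-sided), with Benjamini-Hochberg adjustment over all gene rows and a threshold of 0.05; the code was tested on simulated data. Isozyme ratios were compared with scipy 1.17.1. Figures used matplotlib 3.10.9. The members, gene lists and tests were chosen with earlier results of these data known. Every member was named; of the other genes of a branch, up to 3 past the threshold, otherwise the one with the lowest adjusted p. Arrays give no counts, so the number of arrays limits the precision. Alternatives were the mouse number as a block, another scaling, a filter on dim genes (the lowest 25%), other eBayes settings, array weights, stricter thresholds and leaving out arrays.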

Additional observations from a re-analysis of the deposited data

Results flagged for a closer look

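In 18 of 78 groups of 5 mice, 1 mouse lay far from the other 4 of its own group for 1 gene, by Dixon's criterion, which by chance marks about 1 group in 20. Of these, 11 were db/db 1. It was far above the other db/db mice in Hk3 (10.77), Pfkp (10.08), Eno2 (10.14), Pkm (13.25), Pfkfb3 (10.10), H6pd (13.40) and Gfpt1 (7.78). It was far below them in Pfkm (9.996), G6pc (12.75), Slc37a4 (13.08) and Khk (13.28). The other 7 were db/m mice. Mouse db/m 4, which also had the highest fat cell markers, was low in Pfkl (10.85) and Pfkm (11.05) and high in Pfkp (8.53). Mouse db/m 5 was high in G6pc3 (10.93) and Pgls (10.66), db/m 1 was high in Pgd (12.31), and db/m 2 was low in H6pd (12.92).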

How the results depend on the processing

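Of the 7 rises, Pck2 and Fbp2 passed in all 10 fits that left out 1 mouse, and the other 5 did not pass without db/m 3. Leaving out 1 mouse at a time gave 490 to 2104 genes called overall and 2 to 10 members higher. At an adjusted p under 0.01 there were 279 genes and 0 members. A minimum of 1.5-fold gave 575 genes, and array weights gave 2641. A further pair of settings was added after seeing the data: leaving out db/db 1 and db/m 4 gave 1650 genes, and leaving out db/db 1 and db/db 2 gave 1834. Pfkp passed only without db/db 1 and db/m 4 (change 0.33, adjusted p = 0.0334 by limma). Centring each array gave 363 genes higher and 751 lower, against 488 and 584 as deposited. With the mouse number as a replicate block there were 393 genes and 1 member (Fbp2), and with the replicate block and db/db 1 left out 4 members (Aldoc, Pck2, Fbp2 and Gfpt2). The labels do not say whether same-numbered mice are paired. Deviations of same-numbered mice from their group means correlated at -0.0948 to 0.00599, which shows no likeness across genes but cannot exclude a pairing. No call changed sign. Among changes that were never called, the sign turned as follows, and the cause was not tested. With the replicate block and db/db 1 left out, the changes were -0.064 for Hk3, 0.18 for Pfkm, 0.029 for Khk, -0.16 for Gfpt1 and 0.067 for Gbe1. Without db/db 1 and db/m 4 they were -0.043 for Hk3, 0.12 for Pfkm, 0.00075 for Fbp1, 0.015 for Khk, -0.085 for Gfpt1, 0.14 for Gbe1 and 0.72 for Hk1 minus Hk3. Without db/db 1 and db/db 2 they were -0.12 for Hk3, 0.20 for Pfkm, 0.012 for Fbp1, -0.054 for Akr1b8, 0.017 for Sord, 0.00037 for Khk, -0.11 for Gfpt1, 0.15 for Gbe1, 0.77 for Hk1 minus Hk3, -0.046 for Pfkl minus Pfkm and -0.071 for Eno2 minus Eno3. Array weights gave 0.15 for Pfkm, 0.0044 for Fbp1, 0.0086 for Khk, -0.092 for Gfpt1 and 0.17 for Gbe1. Centring gave -0.040 for Aldoa, -0.060 for Ldhb, -0.056 for G6pc and -0.057 for Slc37a4, and repeated quantile normalisation gave 0.012 for Fbp1. Over the fits that left out 1 mouse the changes ran between -0.030 and 1.08 for Hk3, -0.20 and 0.18 for Pfkm, -0.045 and 0.22 for Eno3, -0.0059 and 0.017 for Ldhb, -0.031 and 0.13 for G6pc, -0.022 and 0.12 for Slc37a4, -0.10 and 0.019 for Khk, -0.11 and 0.0088 for H6pd, -0.16 and 0.25 for Gfpt1, -0.14 and 0.13 for Gbe1, -0.47 and 0.61 for Hk1 minus Hk3, and -0.0016 and 0.40 for Pfkl minus Pfkm. The number of arrays limits the precision throughout.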
